A study of Mus musculus with 4 samples.

Results

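The genes described here are 9 genes that equip the blood-brain barrier: the solute transporters Mfsd2a, Slco1c1, Slco1a4, Slc2a1, Slc7a5, Slc16a1, Slc22a8 and Slc38a5, and the junction gene Ocln. They were found on the array through the RefSeq accession of each probe, which gave 14 probes for the 9 genes out of 41174 probes and 16543 genes with a symbol. Slc16a1 and Slc22a8 had 3 probes each, Ocln had 2 and the other 6 genes had 1 each. The set was put together with the strain ratios of these arrays in view, Mfsd2a and Slco1c1 having been noticed as lower in SAMP8 while vascular markers leaned higher, so the ratios of the strain comparison describe the genes and are evidence for nothing beyond them. Ocln is a junction protein and carries no solute, so the set holds 8 transporters and 1 gene of another kind.

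Whole-brain RNA was compared on 4 two-colour Agilent arrays. SAMP8 is a senescence-accelerated mouse strain, and SAMR1 is the senescence-resistant strain used as its control. The labels give AKR/J with suspected outbreeding to an unknown line as the background of both strains. For SAMP8 there were both a low-safflower oil control diet (LSO) and one supplemented with an extract of whale meat (WME); SAMR1 received LSO alone. Every group ate chow until 24 weeks of age and its diet for 26 weeks, went through behavioural tests, and gave brains at 50 weeks. The strain comparison set SAMP8 LSO against SAMR1 LSO, and the diet comparison set SAMP8 WME against SAMP8 LSO, each on 2 arrays with the dyes exchanged. The SAMP8 LSO group enters both comparisons. Neither the sex nor the number of mice per RNA, nor any pooling, is stated in the labels. Both arrays of a pair therefore count as 1 replicate, so no difference could be checked in a second RNA and none has a p-value.

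Values are log2 ratios, and the error beside each is the SD over 2 dye orientations, which measures technical error only and includes any dye preference of the probe. A second measure, the technical SD, is the technical error of a mean over 2 arrays. It is estimated from probes of similar brightness after that dye preference is removed. Its value over all probes above background in both comparisons was 0.052, and for the 13 probes of the set that were above background it ran from 0.038 to 0.060. No spot was saturated on any array, and between 81.4% and 85.6% of probes were well above background per channel. Across all genes the ratios of both arrays of a pair correlated at 0.57 in the strain comparison and at -0.20 in the diet comparison. The central 95% of genes had a mean ratio between -0.27 and 0.36 in the strain comparison and between -0.16 and 0.14 in the diet comparison.

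The endothelial cells of brain capillaries are joined by tight junctions, so nutrients and hormones reach the brain largely through carriers in their membranes. Each carrier has its own cargo: glucose, lactate, amino acids, lipids bound to lysophosphatidylcholine, thyroid hormone or organic anions. Wnt ligands made by neural cells act through beta-catenin and the LEF and TCF factors to switch on and maintain much of this programme in brain endothelium. Several carriers are also made elsewhere in the brain: Slc22a8 in choroid plexus and meninges, Slco1c1 in choroid plexus and astrocytes, and Slc16a1 in glia.

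Promoter windows of 300 bases, from 250 before to 50 after a transcript start, were taken from RefSeq (GRCm38.p6) for 8 of the 9 genes; no window of Slc7a5 was used here. The Slc22a8 window belongs to a start inside the gene's annotated extent. Those of Mfsd2a, Slco1c1 and Slc38a5 are shown because these genes had the lowest and the highest strain ratios of the set. They are chr4:122961139-122961438 on the minus strand, chr6:141524104-141524403 on the plus strand and chrX:8271131-8271430 on the plus strand. Capitals mark the LEF/TCF core, searched as CTTTGA or CTTTGT on both strands, and the windows read 5′ to 3′ along the gene.
Mfsd2a: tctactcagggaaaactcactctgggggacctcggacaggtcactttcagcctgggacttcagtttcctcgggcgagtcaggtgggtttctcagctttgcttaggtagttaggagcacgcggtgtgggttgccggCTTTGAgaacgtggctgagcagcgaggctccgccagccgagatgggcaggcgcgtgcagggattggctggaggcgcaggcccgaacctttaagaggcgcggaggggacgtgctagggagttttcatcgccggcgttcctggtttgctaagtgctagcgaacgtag
Slco1c1: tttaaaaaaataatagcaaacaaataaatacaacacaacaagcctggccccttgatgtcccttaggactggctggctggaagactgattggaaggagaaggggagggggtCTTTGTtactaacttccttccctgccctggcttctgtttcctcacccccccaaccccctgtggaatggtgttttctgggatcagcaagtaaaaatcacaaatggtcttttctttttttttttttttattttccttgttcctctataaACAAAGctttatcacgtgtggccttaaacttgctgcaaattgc
Slc38a5: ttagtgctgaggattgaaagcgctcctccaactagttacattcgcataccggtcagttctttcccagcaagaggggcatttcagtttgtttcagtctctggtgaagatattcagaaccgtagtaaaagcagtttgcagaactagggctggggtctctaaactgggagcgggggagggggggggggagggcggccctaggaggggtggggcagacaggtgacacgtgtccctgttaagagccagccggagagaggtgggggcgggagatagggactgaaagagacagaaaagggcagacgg
The core lay once in the Mfsd2a window, beginning at position -115 from the transcript start, and 2 times in the Slco1c1 window, at positions -140 and 8. It was not found in the Slc38a5 window. Slc16a1 and Slc22a8 held it once each, so 4 of the 8 genes had a match, and 31.2% of all 32851 windows of this length had one. The E-box CACGTG lay in the Slco1c1, Slc16a1 and Slc38a5 windows, and in 7.2% of all windows. A match is a description of the letters and does not show that a factor binds there.

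Between the strains the 9 genes split by direction, with Mfsd2a and Slco1c1 lower and Slc38a5 higher in SAMP8 by about the same size. A gene was called when both arrays showed at least 1.5-fold in 1 direction; none of the 9 did, and 1.46% of the 26938 genes and transcripts measured did so (394 of them). Mfsd2a and Slc38a5 each passed that size on 1 array of the pair and fell just short on the other, and the count became 1 under another normalization: Mfsd2a with median centring, Slc38a5 with processed signals or a normexp offset of 10. At 1.2-fold on both arrays, Mfsd2a and Slco1c1 were lower and Slc38a5 was higher, 3 of 9 genes. Over all genes and transcripts 4.53% passed 1.2-fold in either direction, 2.81% higher and 1.72% lower. The genes had been chosen on this comparison, so nothing is read from that difference in share. Of the 9 genes, 4 lay above 0 on both arrays, 4 lay below 0 on both and 1 differed in sign between arrays. Their median ratio was -0.15, against -0.01 over all genes, and it describes a set with members at both ends rather than a common shift.

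**Figure D1:**
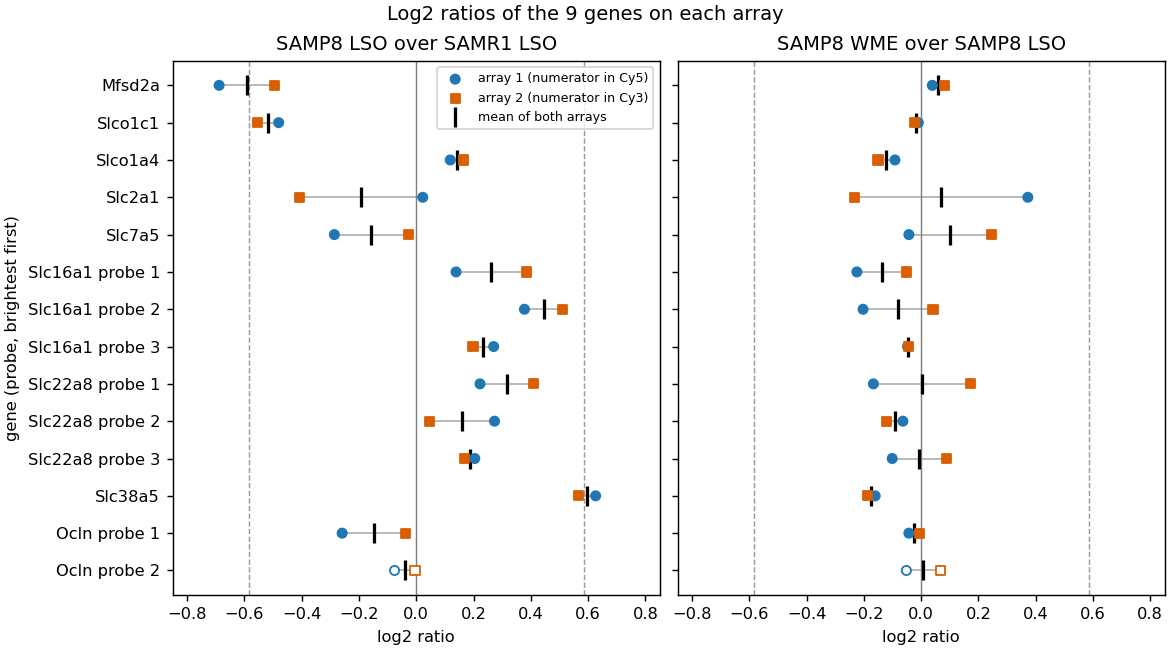
Log2 ratio of every probe of the 9 genes on each array, for the strain comparison (left) and the diet comparison (right); circles and squares are the 2 dye orientations, bars their mean, open symbols a probe not above background, and dashed lines 1.5-fold. Mfsd2a and Slco1c1 sit near -0.6 and -0.5 and Slc38a5 near 0.6 in the strain comparison, while the mean farthest from 0 in the diet comparison is -0.17.

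Mfsd2a carries docosahexaenoic acid into the brain as lysophosphatidylcholine and limits vesicle transport across brain endothelium. Its normalised log2 signal was 12.23 and 12.15 in the SAMR1 LSO channels. In SAMP8 LSO it was 11.54 and 11.65 on the strain arrays and 11.58 and 11.59 on the diet arrays, and in SAMP8 WME it was 11.62 and 11.67. Every SAMP8 channel lay below both SAMR1 channels while the SAMP8 channels of both diets overlapped. SAMP8 WME and SAMR1 shared no array, so here and below their order is indirect and rests on the scaling across arrays. The strain ratio was -0.69 on the first array and -0.50 on the second, a mean of -0.59 ± 0.14 (SD over 2 dye orientations), or 1.51-fold lower in SAMP8. That mean was 15.4 times the technical SD of 0.038 and stood at the 0.61 percentile of all genes measured. In bulk tissue such a difference cannot be split into fewer cells of a type and less RNA per cell. Mfsd2a, like Slco1c1 and Slc38a5, had 1 probe, so its ratio could not be checked on a second one.

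Slco1c1, also known as OATP1C1, takes thyroxine across the barrier and is a main thyroid hormone carrier of mouse brain capillaries. SAMR1 LSO gave log2 signals of 12.02 and 12.09. The 4 SAMP8 LSO channels gave 11.53 to 11.56, and SAMP8 WME gave 11.51 and 11.55, so that the SAMP8 channels of both diets overlapped and all lay below SAMR1. The strain ratio was -0.48 and -0.55 on the 2 arrays, a mean of -0.52 ± 0.05 (SD over 2 dye orientations) or 1.43-fold lower in SAMP8, at the 0.75 percentile of genes. This was 12.5 times the technical SD of 0.041. Its arrays agreed more closely than those of Mfsd2a, and neither reached 1.5-fold. Slco1c1 also lies in the organic anion transporter family with Slco1a4, which went the other way.

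Slc38a5 is a sodium-coupled carrier of glutamine and other neutral amino acids. Its log2 signal was 9.99 and 10 in SAMR1 LSO, 10.54 to 10.63 in the 4 SAMP8 LSO channels, and 10.38 and 10.39 in SAMP8 WME. SAMP8 LSO was highest, SAMP8 WME in between and SAMR1 lowest, with no overlap between the channels of the 3 groups. Each group is 1 RNA, so its channels repeat the measurement only, and SAMP8 WME against SAMR1 is indirect. The strain ratio was 0.63 and 0.57, a mean of 0.60 ± 0.04 (SD over 2 dye orientations) or 1.51-fold higher in SAMP8, at the 98.87 percentile of genes. By the brightest probe of each gene, it alone of the set was above 1.2-fold on both arrays in that direction.

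**Figure D2:**
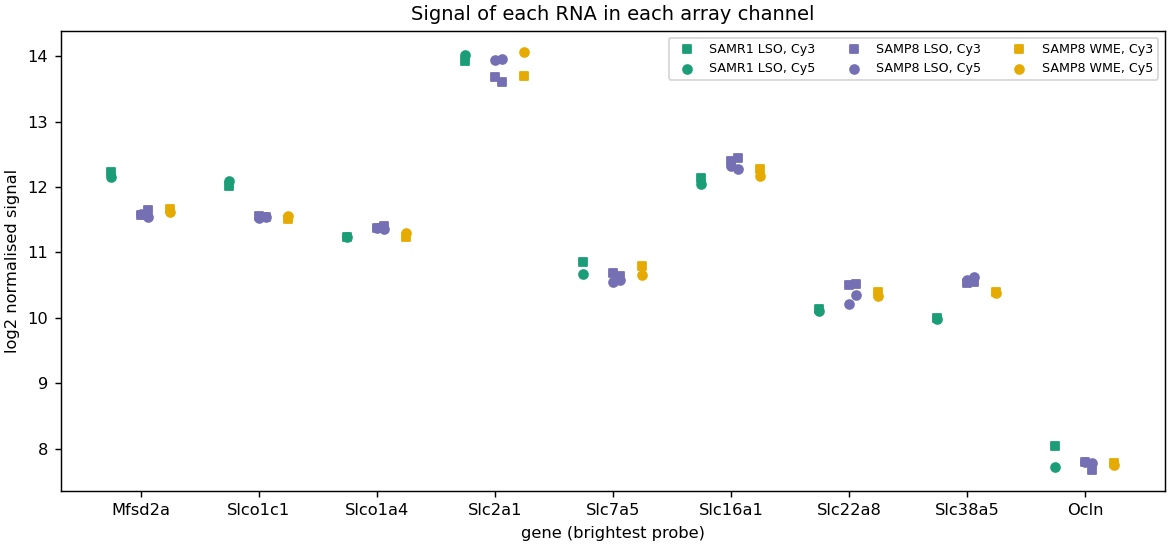
Log2 normalised signal of the brightest probe of each gene in every array channel (SAMR1 LSO 2 channels, SAMP8 LSO 4, SAMP8 WME 2; squares Cy3, circles Cy5), to be compared within a gene only. SAMR1 stands above all SAMP8 channels for Mfsd2a and Slco1c1 and below them for Slc38a5, and Slc2a1 separates by dye in SAMP8. SAMP8 WME and SAMR1 shared no array.

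Slc7a5, the LAT1 carrier of large neutral amino acids such as leucine and phenylalanine, did not move with Slc38a5. It had ratios of -0.29 and -0.03, a mean of -0.16 ± 0.18 (SD over 2 dye orientations), with a spread between orientations above its size. Its log2 signal was 10.67 (Cy5) and 10.86 (Cy3) in SAMR1 LSO against 10.55 to 10.69 in SAMP8 LSO, so the channels overlapped across dyes. Within each dye SAMP8 LSO was lower, at 10.55 and 10.58 in Cy5 and 10.64 and 10.69 in Cy3. The mean ratio was 3.57 times the technical SD of 0.044, at the 7.18 percentile of genes. Of 12 other amino acid carriers measured, none was called, the median was 0.04, and Slc7a7 (0.38 ± 0.11) and Slc7a11 (0.29 ± 0.05), the cystine-glutamate exchanger, had the largest ratios. Slc3a2, the heavy chain that pairs with Slc7a5, had -0.04 ± 0.19.

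Slc2a1, the GLUT1 glucose carrier, took opposite signs on the 2 strain arrays and leaned lower in SAMP8 once dye was taken into account. Its ratio was 0.02 on the first strain array and -0.41 on the second, a mean of -0.19 ± 0.30 (SD over 2 dye orientations). In SAMP8 LSO its log2 signal was 13.94 and 13.95 in the Cy5 channels and 13.68 and 13.60 in the Cy3 channels, so the dye separated the same RNA by more than the strains differed. SAMR1 gave 13.93 in Cy3 and 14.01 in Cy5, so within each dye SAMP8 LSO lay below SAMR1. The mean ratio was 5.02 times the technical SD of 0.038, which leaves out dye preference, and stood at the 4.82 percentile of genes.

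Slc16a1, the MCT1 carrier of lactate and ketone bodies, was higher in SAMP8 on all 3 probes and both arrays. The brightest probe gave 0.14 and 0.38, a mean of 0.26 ± 0.17 (SD over 2 dye orientations). The second gave 0.38 and 0.51 (0.44 ± 0.09), and the third gave 0.27 and 0.20 (0.23 ± 0.05). The probes kept 1 direction but differed in size, and none reached 1.5-fold on either array. The second probe passed 1.2-fold on both arrays and the brightest did not. By the brightest probe, log2 signals were 12.05 and 12.14 in SAMR1 LSO and 12.28 to 12.44 in SAMP8 LSO, without overlap.

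Of the 10 other genes of glucose and lactate transport and use, 1 was called: Emb, a partner protein of monocarboxylate carriers, was lower in SAMP8 by 1.77-fold (-0.83 ± 0.05). A second Emb probe gave a mean of 0.06, so the call rests on 1 of its 2 probes. The median of the 10 was -0.05. Slc16a7, the neuronal carrier MCT2, had 0.49 ± 0.03, and Bsg, the partner of Slc16a1, had -0.15 ± 0.47; both were named after their values were seen.

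The organic anion carriers Slco1a4 and Slc22a8 were a little higher in SAMP8. Slco1a4, OATP1A4 of the capillary wall, had ratios of 0.12 and 0.17, a mean of 0.14 ± 0.03 (SD over 2 dye orientations), 3.50 times its technical SD. Its log2 signal was 11.23 and 11.24 in SAMR1 LSO and 11.36 to 11.40 in SAMP8 LSO, with no overlap. Slc22a8, OAT3, which clears organic anions from brain to blood, gave 0.22 and 0.41 on its brightest probe (0.32 ± 0.13), 0.27 and 0.05 on the second (0.16 ± 0.16) and 0.20 and 0.17 on the third (0.19 ± 0.03). All 3 probes pointed to SAMP8, and none reached 1.5-fold.

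Among 9 other organic anion carriers measured none was called, the median was 0.01, and Slco1a5 (0.45 ± 0.07) and Slc22a6 (0.43 ± 0.06) had the largest ratios, though a second Slco1a5 probe gave 0.17. Slc22a6 also belongs to the meninges list, and Slco1a5 to the choroid plexus list.

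Ocln, occludin, seals the contact between neighbouring endothelial and epithelial cells. Its brighter probe had -0.26 and -0.04, a mean of -0.15 ± 0.16 (SD over 2 dye orientations), so the difference was no larger than the spread between orientations. Its log2 signal was 7.72 and 8.05 in SAMR1 LSO and 7.68 to 7.80 in SAMP8 LSO, which overlap. The second probe was not well above background in either strain. Of 16 other junction genes measured none was called and the median was 0.02; Cldn5, Cdh5 and Esam are also counted among the endothelial identity genes described further on. Cldn5, the main claudin of the barrier, had 0.38 ± 0.36, and Lsr, which organises tricellular junctions, had 0.32 ± 0.01.

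Endothelial genes leaned the other way from Mfsd2a and Slco1c1, a contrast that led to the choice of the set and is given as a description. All 25 endothelial identity genes were well above background in every RNA, the defining markers Pecam1 and Cdh5 among them. The list's median was 0.19, 18 of 25 genes lay above 0 on both arrays and 3 below, and 1 was called, Ly6a at 1.45 ± 0.16. Pecam1 had 0.44 ± 0.01, and Cdh5, the cadherin of endothelial junctions, had 0.19 ± 0.26. The summed signal of these genes ran from 73298 to 75343 intensity units over the SAMP8 LSO channels and from 64512 to 66803 over the SAMR1 channels; these and later sums cover every gene of a list on the array. Over all genes measured, 23.9% lay above 0 on both arrays and 26.7% below.

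Among other carriers and receptors of brain endothelium none was called lower in SAMP8. Of 32 such genes, 1 was called, Abcb1a, which encodes the P-glycoprotein efflux pump, higher in SAMP8 by 3.89-fold (1.96 ± 0.06). The median was 0.00, with 8 genes above 0 on both arrays and 10 below, and the lowest ratio was -0.22. Among 22 genes of Wnt signalling in the barrier, none was called and the median was 0.03. The largest ratios were those of Reck, a part of the Wnt7 receptor complex (-0.33 ± 0.13), and Lef1, a factor that binds the core searched above (0.32 ± 0.12). Of 8 genes of caveolae and fenestrae none was called and the median was 0.06. Cavin1 had 0.24 ± 0.18 and Cav1, the caveolin of endothelial vesicles, had 0.21 ± 0.00.

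**Figure D3:**
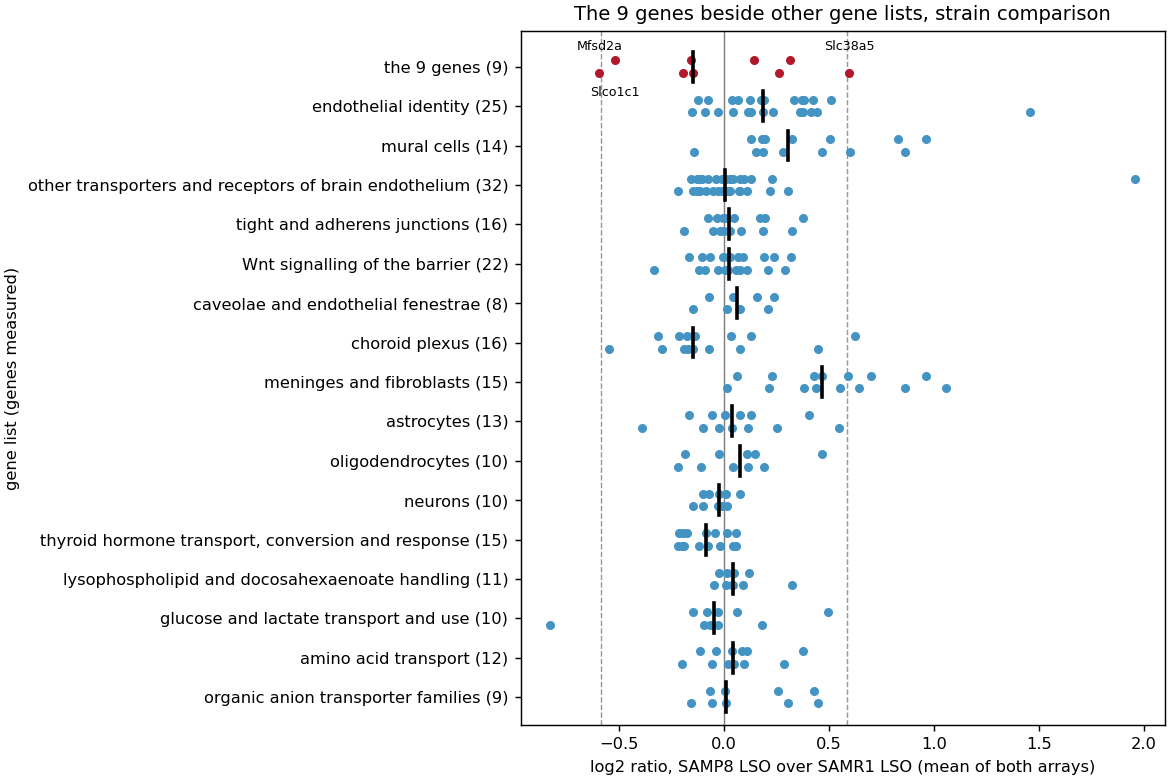
Mean log2 ratio of SAMP8 LSO over SAMR1 LSO for the 9 genes (top) and for each measured gene of the other lists; points are genes, bars list medians, dashed lines 1.5-fold, and the number of genes stands in brackets. The 9 genes span -0.59 to 0.60 with a median of -0.15, while endothelial identity, mural and meningeal lists have medians of 0.19, 0.31 and 0.47.

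Among genes of the pathways that handle the cargo of Mfsd2a and Slco1c1, no strain difference was called. Of 15 other genes of thyroid hormone transport, conversion and response, none was called, 8 lay below 0 on both arrays and none above, and the median was -0.09. Slc16a10, a carrier of aromatic amino acids and thyroid hormone, had -0.21 ± 0.10. Mbp, a myelin gene that responds to thyroid hormone, had -0.22 ± 0.95, with opposite signs on the arrays. Its other measured probes had means of -0.37 and -0.04. Of 11 other genes of lysophospholipid and docosahexaenoate handling, none was called, 3 lay above 0 on both arrays and none below, and the median was 0.04. Fabp7, the brain fatty acid binding protein, had 0.32 ± 0.15, and Slc27a1 had 0.12 ± 0.06.

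Markers of other cell types, some of which also make these carriers, differed between the strains too, and their part in the ratios was not tested. Mural cell genes had a median of 0.31, with 12 of 14 above 0 on both arrays, 3 called (Kcnj8, Pdgfrb and Rgs5), and summed signals of 46130 to 48771 in SAMP8 LSO against 35751 to 36135 in SAMR1. Genes of meninges and fibroblasts, a site of Slc22a8, had a median of 0.47, with 13 of 15 above 0 on both arrays and 5 called, among them Slc47a1, Col3a1, Col1a1 and Col1a2. The Col3a1 call rests on 1 of its 2 probes, the other having a mean of -0.01, and the other Col1a1 probes gave 0.17 and 0.48. Their summed signals overlapped, at 141698 to 218419 in SAMP8 LSO and 126899 to 218018 in SAMR1. Choroid plexus genes, relevant to Slco1c1 and Slc22a8, had a median of -0.15, with 11 of 16 below 0 on both arrays, 3 above and none called. They summed to 55306 to 58100 in SAMP8 LSO and 60385 to 60632 in SAMR1, and Lmx1a was not above background in any RNA. Of the choroid plexus list, Aqp1 had the lowest ratio (-0.55 ± 0.30). Slc13a4, a sulfate carrier, had the list's largest ratio and went the other way (0.62 ± 0.07), while Ttr, the transthyretin of its epithelium, had -0.17 ± 0.00. Astrocyte, oligodendrocyte and neuron lists had medians of 0.04, 0.08 and -0.02, with no gene called and overlapping summed signals. Astrocyte genes, relevant to Slco1c1, went both ways, 5 of 13 above 0 on both arrays and 5 below, with the largest ratios in Gfap (0.55 ± 0.21) and Aqp4 (0.41 ± 0.10). Opalin, a myelin gene, had 0.47 ± 0.20, and Gad1, of inhibitory neurons, had -0.15 ± 0.17. Of erythroid genes 4 were measured, all above 0 on both arrays, none was called and the median was 0.27. Erythroid genes summed to 40325 to 45697 in SAMP8 LSO and 33847 to 34839 in SAMR1, without overlap, and Alas2 (0.44 ± 0.24) and Hba-a1 (0.41 ± 0.05) had the largest ratios. Kidney transcripts, from an organ where Slc22a8 is a major carrier, had a median of -0.35. Of 13, 4 were called lower in SAMP8, led by Kap (-3.00 ± 0.07). Among the 4, Acsm2 had no SAMP8 LSO signal well above background, and its second probe gave -0.33. Summed kidney signals overlapped, at 8470 to 9811 in SAMP8 LSO and 9336 to 10487 in SAMR1. What kidney RNA adds to the Slc22a8 ratio was not tested.

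Mfsd2a and Slco1c1 were not each other's nearest genes by their 4 array ratios. Likeness was measured as the Euclidean distance over the 4 array ratios, among 14600 named genes measured in both comparisons. Nearest to Mfsd2a were Ndfip2 (distance 0.09), Oprl1 (0.10), Epor (0.12), Slit3 (0.12) and Zfp418 (0.12), and Slco1c1 came at rank 31 (0.25). Nearest to Slco1c1 were Cldn9 (0.05), Slc24a2 (0.06), Col11a2 (0.09), Lca5 (0.09) and Pcdhb3 (0.11), and Mfsd2a came at rank 50. With 4 arrays of 3 RNAs, such likeness describes these arrays and no more.

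The whale meat extract diet left the 9 genes close to their SAMP8 control levels. None was called at 1.5-fold, where 0.15% of 26664 genes and transcripts were (40), and none passed 1.2-fold on both arrays, where 0.409% did. The ratios of the brightest probes ran from -0.17 to 0.10, with a median of -0.02 against 0.00 over all genes. Of the 9 genes, 1 lay above 0 on both arrays, 5 below and 3 differed in sign between arrays. Over all genes measured, 19.4% lay above 0 on both diet arrays and 18.7% below. The 9 genes were chosen on ratios that share the SAMP8 LSO RNA, so nothing is read from that difference.

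Slc38a5 had the diet ratio farthest from 0, at -0.16 and -0.19, a mean of -0.17 ± 0.02 (SD over 2 dye orientations), which was 4.08 times its technical SD and 1.13-fold lower with WME. Slc16a1 followed with -0.22 and -0.05 on its brightest probe (-0.14 ± 0.12), and its other probes gave -0.08 ± 0.17 and -0.05 ± 0.00. Slco1a4 had -0.09 and -0.15, a mean of -0.12 ± 0.04. These were 3 genes that stood higher in SAMP8 LSO than in SAMR1, but the SAMP8 LSO group is the denominator here and the numerator there, so the opposite signs are not independent.

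Mfsd2a and Slco1c1, the genes low in SAMP8, had diet ratios of 0.06 ± 0.03 and -0.02 ± 0.01. Their WME levels were 11.64 and 11.53 against 12.19 and 12.06 in SAMR1, an indirect comparison across arrays. Slc2a1 again took opposite signs, 0.37 and -0.23 (0.07 ± 0.43), with the higher signal in Cy5 each time. Slc7a5 had 0.10 ± 0.20, Ocln -0.02 ± 0.03, and Slc22a8 0.00 ± 0.24, -0.09 ± 0.04 and -0.01 ± 0.13 on its 3 probes. By the brightest probe, the spread between orientations was larger than the diet difference for Slc2a1, Slc7a5, Slc22a8 and Ocln.

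Transcripts typical of kidney were higher in the WME RNA: 8 of 13 were called, the median was 1.38 and Kap had 4.92 ± 0.24. Their summed signal was 14926 to 15538 in SAMP8 WME and 8470 to 9811 in SAMP8 LSO. Slc22a8 had 0.00 on its brightest probe, and what kidney RNA adds to its signal was not tested. Endothelial identity genes had a diet median of -0.03 with none called. Meningeal genes had a diet median of -0.17 with 11 of 15 below 0 on both arrays, against 18.7% of all genes. In the lists of other carriers, junctions, Wnt signalling, caveolae and the cargo pathways none was called, with medians from -0.02 to 0.06. Cldn5 had -0.29 ± 0.43, and Dio2, which makes active thyroid hormone in the brain, had 0.17 ± 0.01.

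**Figure D4:**
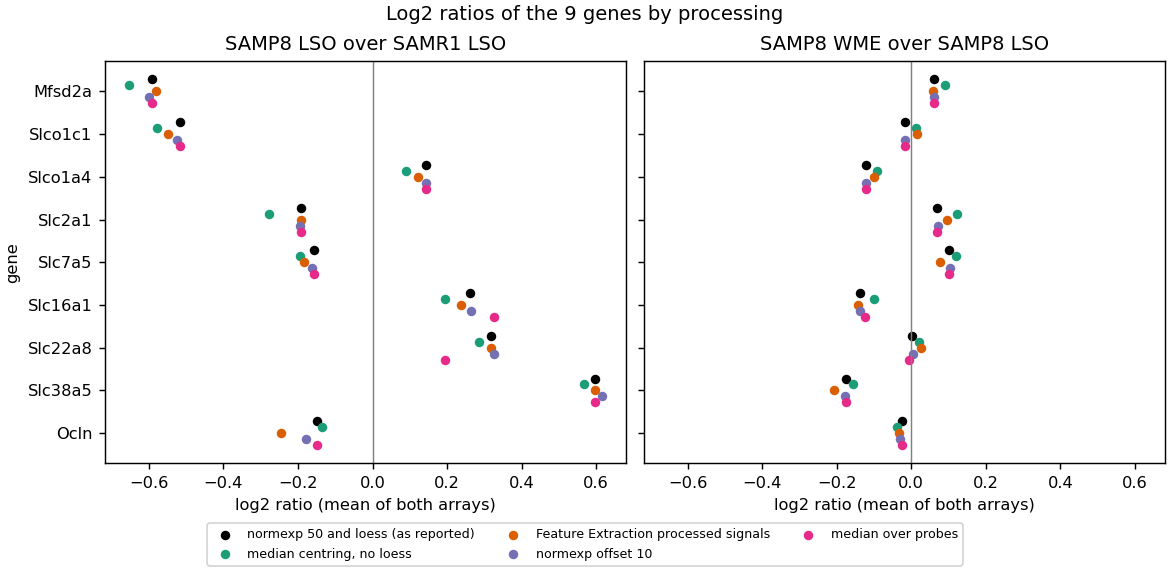
Mean log2 ratio of each of the 9 genes in the strain (left) and diet (right) comparison under 5 ways of processing the arrays; each colour is 1 way. In the strain comparison each gene keeps its sign throughout, with Mfsd2a between -0.65 and -0.58, Slco1c1 between -0.58 and -0.52 and Slc38a5 between 0.57 and 0.62.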

How the data were processed

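Whole-brain RNA of SAMP8 LSO, SAMP8 WME and SAMR1 LSO mice was measured on 4 arrays of 1 slide. Spot intensities came from the deposited scanner files, which Agilent Feature Extraction 11.0.1.1 had written according to both the submitters' processing notes and the headers. The log10 ratios in those deposited files were used only to check the signals. The deposited series table holds log2 ratios, which equalled those of the processed signals within 5e-09; they were neither centred nor turned for dye.

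Median spot signals were corrected with normexp (offset 50) and normalized by loess within arrays with limma 3.58.1 under R 4.3.3, controls having weight 0. On the second diet array 5 spots with bright local backgrounds distorted the normexp fit, so backgrounds marked non-uniform were replaced by the array's median, a step chosen after seeing the data. Outlier spots (105 to 123 per array) were left out, spots of a probe were averaged and ratios were turned so that each reads SAMP8 over SAMR1 or WME over LSO. Levels per channel were scaled across arrays on mean intensity (Aquantile) and are not comparable between probes.

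Of 41174 probes, 23374 were named through RefSeq accessions and 10 by symbol, and 17790 were not matched. A gene was represented by its brightest probe and counted as measured if, on both arrays, 1 RNA or both gave it a signal well above background. For the technical SD, the dye term of 1 pair was subtracted from that of the other, and the difference was divided by the square root of 2. The SD was taken over the 500 probes nearest in brightness that were above background in both pairs. With 1 RNA per group no test was run. The 9 genes and all lists were chosen with earlier results of these data known, and lists leave out the 9 genes. Named genes were the 9, up to 4 called members of each list (in lists with no call, up to 2 of largest ratio), and the 5 genes nearest to Mfsd2a and to Slco1c1; Pecam1, Cdh5, Ttr, Slc3a2, Slc16a7 and Bsg were added after their values were seen. The steps were tested on simulated arrays. Alternatives were other normalizations, background corrections, filters, probe rules, fold sizes and single arrays. A few genes of the lists are not reported here by name.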

Additional observations from a re-analysis of the deposited data

How the results depend on the processing

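With 1 RNA per group, these values carry no biological error, and ratios of dim probes are pulled towards 0 by the normexp offset. In the strain comparison, none of the 9 genes was called as reported, 1 was called with median centring in place of loess (Mfsd2a), with Feature Extraction's processed signals (Slc38a5) and with an offset of 10 (Slc38a5), and 3 at 1.2-fold. Single arrays called 0 to 2, the latter (Mfsd2a and Slc38a5) without the second array. Both genes lie at the 1.5-fold line, so these counts move with small changes in value. The median of the 9 genes, -0.148 with both arrays, was -0.028 and 0.023 on single arrays, the middle gene being Slc7a5 and Slc2a1 in turn and Ocln with both. In the diet comparison no alternative called any of the 9, and the median, -0.017, was 0.013 with median centring and 0.014 with processed signals, and -0.043 to -0.024 on single arrays. Of 45 strain ratios of single genes under 5 settings none changed sign, and of 45 diet ratios 4 did. Slco1c1, -0.017 with diet as reported, was 0.013 with median centring and 0.014 with processed signals. Slc22a8, 0.003 as reported, was -0.006 with the median over probes and -0.001 with every spot's own local background. Some of these settings barely touched the strain ratios. Own local backgrounds left all 9 as reported, and the median over probes could change only genes with several measured probes. Single arrays were not among the 5 settings, and there Slc2a1 had 0.023 and -0.407 between strains. Over all genes, the 394 strain calls became 757 with processed signals, 1219 at 1.2-fold and 139 at 2-fold. The 40 diet calls became 104 with processed signals, 109 at 1.2-fold, 17 at 2-fold, 96 and 101 on single arrays, and 23 with every spot's own local background. That last alternative was chosen after seeing the data. No paired analysis was possible because each pair of arrays is a dye swap of the same RNAs and the labels number no replicates.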

Other observations

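Solute carriers outside the set of 9 held a few larger differences. Of 314 genes with a symbol starting with Slc or Slco that were measured in the strain comparison, 3 were called higher in SAMP8 and 1 lower, and the median was 0.01. Slc2a5, the fructose carrier GLUT5 that is made by microglia in brain, was 3.05-fold higher (1.61 ± 0.07, SD over 2 dye orientations). Slc47a1, an exporter of organic cations that also lies in the meninges list, was 2.08-fold higher (1.06 ± 0.14). Slc5a7, the choline carrier of cholinergic neurons, was 2.06-fold higher (1.04 ± 0.12). Slc25a41, a mitochondrial carrier, was 2.07-fold lower (-1.05 ± 0.09).

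In the diet comparison 2 of 315 such carriers were called, both higher with WME. Slc34a1, the sodium-phosphate carrier of the renal proximal tubule, was 2.95-fold higher (1.56 ± 0.10). Slc17a3, an organic anion carrier of kidney and liver, was at least 1.65-fold higher, given as a bound since SAMP8 LSO had no signal well above background there.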
